A study of Mus musculus with 10 samples.

Results

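The integrin and laminin genes were taken from a table of 18901 mouse genes by their symbols: the integrin alpha chains (Itga with a number, with 2b, or with d, e, l, m, v or x), the integrin beta chains (Itgb with a number) and the laminin alpha, beta and gamma chains (Lama, Lamb and Lamc with a number). This gave 37 genes, of which 18 encode integrin alpha chains, 8 integrin beta chains and 11 laminin chains. Genes entered a test when 2 or more libraries had a value of 10 or higher, and 36 of the 37 did. Itgax, which encodes a leukocyte alpha chain, lay between 1.13 and 10.6 in the 10 libraries and was not tested. Itgad passed through its MEF values alone, so a difference of that gene from MEF follows in part from the filter.

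Polyadenylated RNA of 5 lines was sequenced, with 2 libraries per line. The Oct4-GFP MEF, embryonic fibroblasts from a cross of the mf1 and 129 strains, were taken at passages 2 and 4 from DMEM with 10% FCS. The other lines were pre-iPS cells, 'control' iPS cells and 2 'rNetrin-1-derived' iPS clones (clone 1 and clone 2). They were taken at passages 5 and 25 from KSR+LIF medium, and all of them came from such MEF infected with Oct4, Sox2, Klf4 and c-Myc retroviruses. Recombinant Netrin-1 had been added while the clones were derived and not for the 'control' line. The pre-iPS cells are a partly reprogrammed line in which, by the study's description, the Oct4-GFP reporter stays off and the retroviral transgenes stay on. The 2 libraries of a line are 2 passages of it, so a p-value given here compares lines and passages and not independent derivations. The labels name single clones for the 'rNetrin-1-derived' lines only.

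The 10 libraries held 38110410 to 52946856 reads on genes, and all values below are reads normalized by the authors with edgeR, called normalized values. These summed to 56073322 and 55886953 in MEF and to 39745507 to 41892877 in the other 8 libraries, so the totals are not equal. Scaling to equal totals was not run and would lower the MEF values relative to the others. The labels fitted the marker genes: the 11 fibroblast markers summed to 2917412 and 3060048 in MEF and to between 23166 and 37924 in the other 8 libraries. The naive pluripotency marker Nanog stood at 2489 to 7441 in iPS, at 311 and 349 in pre-iPS and at 34.5 and 36.9 in MEF. Pre-iPS and iPS cells were grown on gelatin or on irradiated MEF, and which was used for these libraries is not given in the labels. Of the fibroblast markers, Col1a1 was at 0.441 to 0.998% of its MEF mean in these 8 libraries, but Dcn was at 15.7 to 22.3% and Pdgfra at 11 to 22.8%. The pluripotency list of 9 genes summed to 412190 and 435812 in pre-iPS, to 134131 to 186108 in iPS and to 2233 and 2745 in MEF. Most of the pre-iPS sum was Pou5f1 (Oct4), at 392944 and 415437 against 91002 to 110018 in iPS. Its reads from the retroviral transgene and from the endogenous gene were not told apart. In pre-iPS Nanog, Esrrb, Dppa3, Dppa5a, Utf1 and Tdgf1 were below every iPS value, while Zfp42 and Fgf4 overlapped. The endothelial and trophoblast lists summed to 257 and 261 and to 249 and 262 in MEF, and to 2274 to 4438 and 1538 to 3699 in the other libraries. The 2 MEF libraries were closer to each other than those of any other line, but beyond counting noise (chi-square per degree of freedom 2.761 against 36.26 to 50.86), and were kept as 2 samples. In bulk RNA fewer cells of a type and less RNA per cell cannot be told apart.

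An integrin is a pair of 1 alpha and 1 beta chain that spans the cell membrane and ties the matrix outside to the actin or keratin skeleton inside. The alpha chain mostly sets the ligand: collagen, laminin, proteins with the RGD motif such as fibronectin and vitronectin, or receptors on other cells. Laminins are trimers of an alpha, a beta and a gamma chain and are the scaffold of basement membranes, including the first one of the embryo, which forms between primitive endoderm and epiblast. The netrins share domains with the laminin chains, and integrins with the alpha6 and beta4 chains or the alpha3 and beta1 chains have been described as binding Netrin-1.

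**Figure D1:**
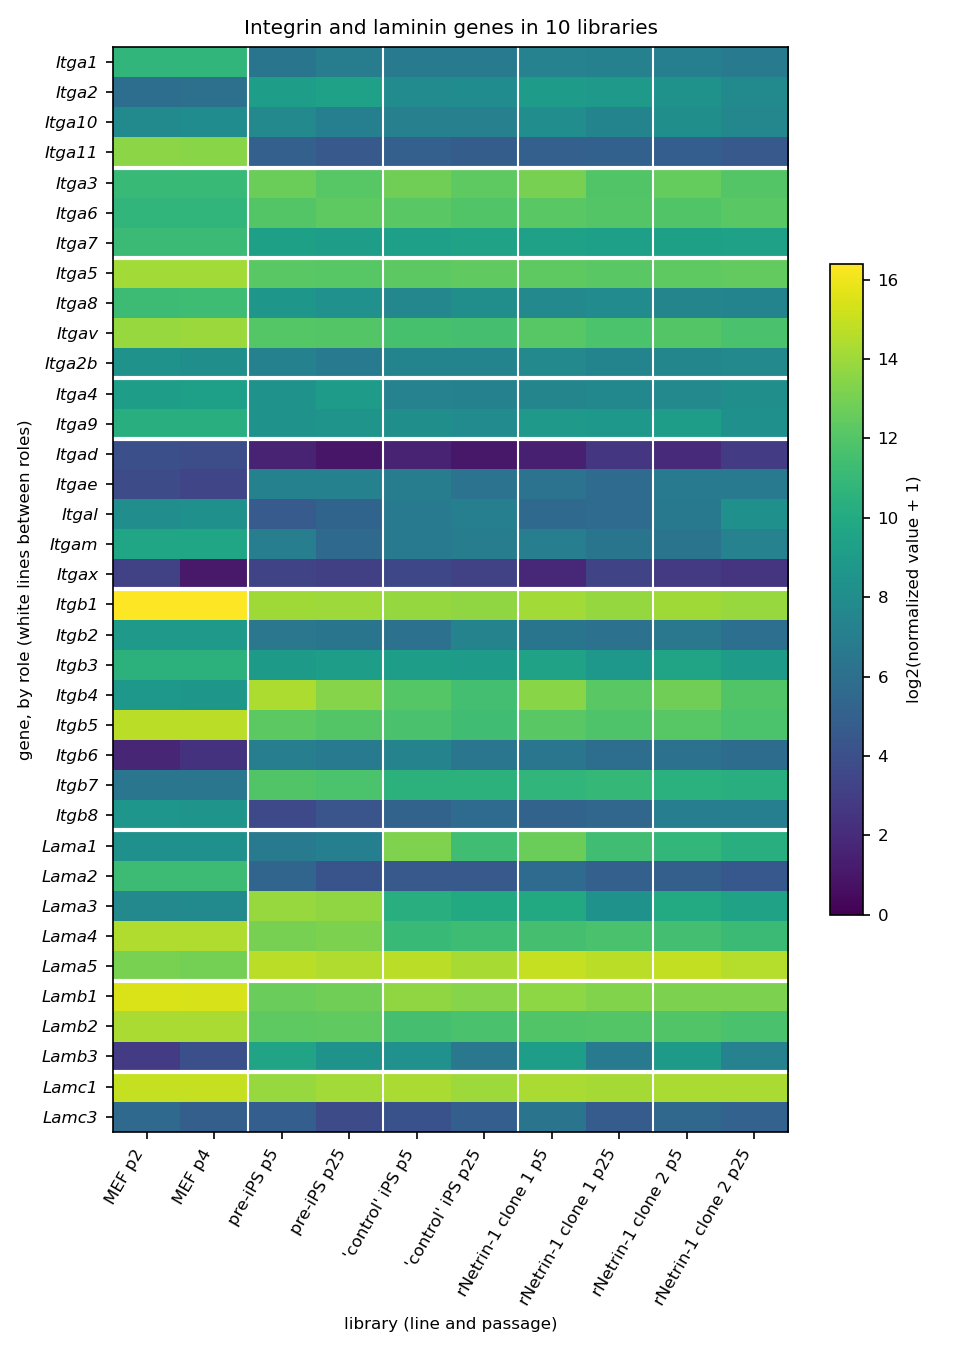
Log2(normalized value + 1) of 36 integrin and laminin genes (rows, grouped by role) in the 10 libraries (columns, line and passage), with colour from 0 (dark) to the highest value (yellow). The 2 MEF columns stand apart from the other 8, as for Itga11 (11737 and 11365 against 22.4 to 32.8), and Lama3 is bright in the pre-iPS columns (14927 and 12933).

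Fibroblasts were first compared with the iPS cells, as the mean of MEF less the mean of the 3 iPS lines. MEF held more RNA for most integrin chains and for the laminin chains Lama2, Lama4, Lamb1 and Lamb2, and less for a second group. In that group Itga2, Itgae, Itgb4, Itgb6, Itgb7, Lama1, Lama3 and Lamb3 were over 4 times lower by the ratio of the means. In all, 20 of the 36 tested genes were higher in MEF and 12 lower at an adjusted p under 0.05 and a log2 fold change of at least 1 (limma with Benjamini-Hochberg adjustment over 17075 genes). Over all genes 21.6% were higher and 26.6% lower by the same rule. The median log2 fold change was 1.53 over the 36 genes and -0.09 over all genes. By family, 16 of 25 integrins were higher and 7 lower, while 4 of 11 laminins were higher and 5 lower. When each library was scaled to Gapdh, Actb, Hprt and Tbp, the median of all genes moved to 0.31, the counts became 22 higher and 10 lower, and over all genes 3690 higher and 4547 lower became 5123 and 3633. Only Itga3 and Itga6 lost their call by that scaling (log2 fold changes of -0.94 and -0.89), Itga2b and Lamc1 gained one (1.15 and 1.09), and the fold changes below are to be read against a shift of this size.

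Summed per kb of exon, the integrin alpha chains reached 9055 and 9166 in MEF and 2772 to 3858 in iPS, and the beta chains 28234 and 29017 against 5059 to 8040. The laminin beta chains likewise summed to 7720 and 7879 in MEF and to 1494 to 1958 in iPS. The laminin alpha chains gave 2752 and 2782 in MEF, inside the iPS range of 2290 to 3862.

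Among the 4 alpha chains that bind collagen, Itga11, the fibroblast receptor for fibrillar collagen on chromosome 9 (chr9:62677826-62783982), had the largest difference of the 36 genes. Its values were 11737 and 11365 in MEF and 22.4 to 32.8 in the 6 iPS libraries. The MEF mean was 11551 ± 263 (SD, n = 2) and the iPS mean 29 ± 3.86 (SD, n = 6), a ratio of 398 and a log2 fold change of 8.60 ± 0.19 (SE, with a limma adjusted p = 6.28e-09). Per kb it supplied 24.7% of the integrin alpha RNA of MEF and 0.176% of that of iPS.

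Itga1 and Itga2, which both pair with Itgb1 to bind collagens, are neighbours on the minus strand of chromosome 13 (Itga2 at chr13:114833081-114932100, Itga1 at chr13:114953096-115101964) and differed in opposite directions. Itga1 stood at 1783 and 1750 in MEF and at 104 to 152 in iPS, or 3.82 ± 0.17 in log2 units (SE, limma adjusted p = 1.39e-07). Itga2 stood at 59.5 and 65.4 in MEF and at 216 to 532 in iPS, so that the log2 difference was -2.32 ± 0.18 (SE, adjusted p = 3.91e-06 by limma). For neither gene did the groups overlap. Here and below, a lack of overlap describes the values of a gene and is not a further test. The share of all genes without overlap is not given. Itga10, the chain of cartilage cells, was at 221 and 246 in MEF and at 139 to 284 in iPS and did not pass (log2 fold change 0.29 ± 0.25).

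The bases before the RefSeq start of 4 genes are given because they show the neighbours Itga1 and Itga2 and the laminin alpha chains Lama2 and Lama5, each pair with opposite differences. They are on the minus strand of build GRCm38.p6, 250 bases each, 5′ to 3′ and ending just before the start, and the windows hold no annotated exon. The Lama2 window lies within an intron of the gene as annotated in GENCODE M21, which starts further upstream (chr10:27619758), while the others abut their genes there. Capitals mark the letters GGGCGG (bound by Sp and Klf factors) and CACCTG (an E-box bound by Snail and Zeb factors) on either strand. The lines give Itga1 (chr13:115101965-115102214), Itga2 (chr13:114932101-114932350), Lama2 (chr10:27616943-27617192) and Lama5 (chr2:180225860-180226109).
Itga1: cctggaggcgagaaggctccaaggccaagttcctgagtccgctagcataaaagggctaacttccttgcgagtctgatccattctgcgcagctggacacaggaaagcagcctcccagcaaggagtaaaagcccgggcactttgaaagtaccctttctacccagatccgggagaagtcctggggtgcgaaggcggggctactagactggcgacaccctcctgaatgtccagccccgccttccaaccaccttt
Itga2: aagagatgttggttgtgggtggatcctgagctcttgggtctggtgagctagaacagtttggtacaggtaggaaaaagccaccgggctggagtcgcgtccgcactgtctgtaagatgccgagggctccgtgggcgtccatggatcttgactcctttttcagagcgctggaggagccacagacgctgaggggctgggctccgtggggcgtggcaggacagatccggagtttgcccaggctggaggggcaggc
Lama2: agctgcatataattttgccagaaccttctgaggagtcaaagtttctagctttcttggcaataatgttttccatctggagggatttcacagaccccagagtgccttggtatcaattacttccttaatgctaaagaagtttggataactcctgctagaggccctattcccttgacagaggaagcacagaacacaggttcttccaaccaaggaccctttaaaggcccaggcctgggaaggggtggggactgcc
Lama5: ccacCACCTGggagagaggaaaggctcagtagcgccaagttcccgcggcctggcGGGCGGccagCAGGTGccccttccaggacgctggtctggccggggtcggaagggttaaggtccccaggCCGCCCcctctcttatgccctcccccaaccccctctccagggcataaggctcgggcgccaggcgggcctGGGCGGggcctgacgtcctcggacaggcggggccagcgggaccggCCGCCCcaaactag

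Lama5 held 4 matches to GGGCGG and 2 to CACCTG, and its window was 72.4% G or C, against 57.6% for Itga1, 60.8% for Itga2 and 47.2% for Lama2, which held none. A promoter entry was found for 23 of the 37 genes. Of these, 8 held GGGCGG, 8 held CACCTG, 1 (Itgax) held the AP-1 site TGANTCA and 0 held the octamer ATGCAAAT, all searched on both strands. Some genes have more than 1 entry, and by entry the counts were 9, 8, 1 and 0 of 26. Over all 32851 entries of that length the shares with a match were 32.7%, 17.2%, 6.75% and 1.6%. Of the 8 genes with GGGCGG, Itga4, Itga5, Itgam, Itgb1, Itgb5 and Lamb1 were higher in MEF, and Itga3 and Lama5 were lower. Of the 8 with CACCTG, Itga11, Itga9, Itgb5 and Itgb8 were higher, and Itga3, Itgb6, Lama5 and Lamb3 lower. Over the 36 tested genes 20 were higher and 12 lower, and a link of motif and direction was not tested.

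The alpha chains that bind laminin differed in both directions. Itga3 and Itga6 were higher in iPS, where Itga6 is a known surface chain of stem cells and Itga3 an epithelial receptor for the laminins with Lama3 or Lama5. Itga6 was at 1790 and 1770 in MEF and at 3931 to 4716 in iPS, and Itga3 at 2255 and 2172 against 3944 to 8260, with log2 fold changes of -1.28 ± 0.11 and -1.33 ± 0.28 (SE). Itga7, the muscle laminin receptor, was at 2292 and 2278 in MEF and at 606 to 704 in iPS, a log2 fold change of 1.82 ± 0.09. For none of the 3 did the groups overlap, but the Itga3 and Itga6 calls were those lost under the housekeeping scaling above. Per kb Itga3 and Itga6 made up 4.25% and 2.16% of the integrin alpha RNA in MEF and 30.7% and 14.9% in iPS.

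Of the alpha chains that recognise RGD, Itga5 (the fibronectin receptor), Itgav (which pairs with several beta chains to bind vitronectin and latent TGF-beta) and Itga8 (the nephronectin receptor) were higher in MEF. Itga8 stood at 2362 and 2518 in MEF and at 170 to 270 in iPS, which gave 3.56 ± 0.17 (SE) as log2 fold change with an adjusted p of 1.87e-07 in limma. Itga5 was at 18048 and 17740 against 4655 to 5679, and Itgav at 14991 and 15333 against 3065 to 4559. Itga5 led the alpha chains of MEF per kb with 39.8%. In iPS Itga5 (32.6 ± 3.68%, SD, n = 6) and Itga3 (30.7 ± 5.99%) lay within their spread of each other, and Itga3 had the higher mean in 'control' (33.7 against 32.5%) and in clone 1 (31.2 against 30.8%). Itga4 and Itga9, whose products bind VCAM1 and other short motifs, were higher in MEF as well. Itga4 was at 558 and 612 against 146 to 289, and Itga9 at 1303 and 1248 against 243 to 578.

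The alpha chains of blood cells gave 3 genes higher in MEF and 1 lower among the 4 tested. Itgam and Itgal, of macrophages and other leukocytes, stood at 816 and 791 and at 263 and 294 in MEF, and at 79.3 to 151 and 47 to 303 in iPS. Their partner Itgb2 was at 460 and 454 in MEF and at 61.8 to 157 in iPS. All 3 were called higher in MEF, as was Itgad (15.3 and 13.7 against 1.05 to 6.26). The call of Itgal was lost without the MEF library of passage 4 (limma, adjusted p = 0.0556), and its iPS values overlapped those of MEF through clone 2 at passage 25. Of 15 markers of macrophages and leukocytes, 13 were listed. They summed to 17231 and 17400 in MEF and to 982 to 2678 in iPS, where 6 to 8 of the 13 were at or under 10 in both libraries of a line. Lyz2 was at 6824 and 6951 in MEF and at 3.13 to 10.9 in iPS, and Emr1 was at 811 and 787 against at most 4.47. Cd68 of the same list did not follow them, at 767 and 715 in MEF and at 354 to 1124 in iPS. The part of such cells in these differences was not tested.

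Itga2b, the platelet alpha chain, was at 331 and 289 in MEF and at 164 to 211 in iPS and did not reach the fold threshold (log2 fold change 0.76 ± 0.17). The 4 listed megakaryocyte markers summed to 4308 and 4347 in MEF and to 77.9 to 354 in iPS, mostly Ppbp. Itgae, which pairs with Itgb7 to bind E-cadherin, went the other way from the other leukocyte chains. It was at 12.9 and 9.55 in MEF and at 51.3 to 121 in iPS, or -2.84 ± 0.25 in log2 units (SE, limma adjusted p = 9.05e-06).

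All 8 beta chains passed the threshold. Itgb1, the common partner of most alpha chains (chr8:128685654-128733200), led per kb in every library and was at 82677 and 86019 in MEF and at 13102 to 17511 in iPS, a ratio of 5.52 and a log2 fold change of 2.47 ± 0.09. Itgb5, an RGD-binding partner of Itgav, was at 26472 and 26347 in MEF and at 2639 to 4683 in iPS. Itgb3, the platelet and vitronectin receptor chain, was at 1460 and 1493 against 426 to 773, and Itgb8 at 382 and 358 against 36.4 to 133, both higher in MEF.

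The remaining beta chains, Itgb4, Itgb6 and Itgb7, were lower in MEF. Itgb7 (chr15:102215995-102231944), otherwise known from lymphocytes that home to the gut, was at 84.1 and 84.4 in MEF and at 1259 to 1899 in iPS, so that the log2 difference was -4.18 ± 0.09 (SE, adjusted p = 5.47e-09 by limma). Itgb4 (chr11:115974709-116008412), the hemidesmosome chain that pairs with Itga6, was at 427 and 412 in MEF. In iPS it ranged from 2834 to 11396, which gave -3.62 ± 0.39 (SE) as log2 fold change with an adjusted p of 2.76e-05 in limma. Itgb6, an epithelial chain, was at 2.46 and 4.20 in MEF and at 53.8 to 162 in iPS, or -4.26 ± 0.32 in log2 units (SE, limma adjusted p = 2.81e-06). The 3 genes were far apart within the iPS libraries, with Itgb6 at 0.199% of the beta chain RNA per kb, Itgb4 at 12.3% and Itgb7 at 9.07%.

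Ligands of the Itgb7 pairs differed in both directions. Cdh1, E-cadherin, was at 98.8 and 83.6 in MEF and at 14659 to 23290 in iPS. Madcam1, the gut vessel ligand, was at 0.0226 and 1.05 in MEF and at 28.7 to 76.2 in iPS. Vcam1 and fibronectin Fn1 went the other way, at 10471 and 10709 and at 1102257 and 1065285 in MEF. In iPS they were at 1414 to 2143 and at 62001 to 101758.

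For the laminin alpha chains the make-up per kb turned from Lama4 in MEF (66.1 ± 0.752%, SD, n = 2) to Lama5 in iPS (76.9 ± 7.38%, SD, n = 6). Lama4, of vessel and mesenchymal laminin, was at 22021 and 22143 in MEF and at 2146 to 3295 in iPS. Lama5, the broad epithelial chain and that of the laminins used to culture pluripotent cells, was at 8681 and 8174 in MEF and at 19497 to 32289 in iPS, a ratio of 3.16 in favour of iPS. Lama2, the muscle and nerve chain, was at 2367 and 2415 in MEF and at 21.5 to 52.4 in iPS, the second largest difference of the 36 genes (log2 fold change 6.33 ± 0.32, SE, limma adjusted p = 2.87e-07).

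Lama1, the chain of the earliest embryonic basement membranes, was lower in MEF, at 294 and 298, than in any iPS library (1298 to 9610). Lama3, the skin and epithelial chain, was at 208 and 228 in MEF and at 345 to 1291 in iPS. Their log2 fold changes were -3.42 ± 0.47 and -1.92 ± 0.34 (SE).

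Lamb3, found with Lama3 in the laminin of hemidesmosomes, was low in MEF too. It was at 6.28 and 14.7 in MEF and at 92.8 to 594 in iPS, so that the log2 difference was -4.42 ± 0.76 (SE, adjusted p = 0.000591 by limma). The MEF and iPS values of Lamb3 did not overlap. Lamb1 and Lamb2, the chains of most other laminins, were higher in MEF at 44496 and 43982 and at 20628 and 19964, against 9058 to 13145 and 2963 to 4156.

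Lamc1, the gamma chain common to nearly all laminins, lies on the minus strand of chromosome 1 (chr1:153218922-153332786). It was at 31567 and 31140 in MEF and at 15954 to 20707 in iPS and did not reach the fold threshold (log2 fold change 0.70 ± 0.11). Lamc3 stayed low, between 16.4 and 78.1, and did not pass.

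**Figure D2:**
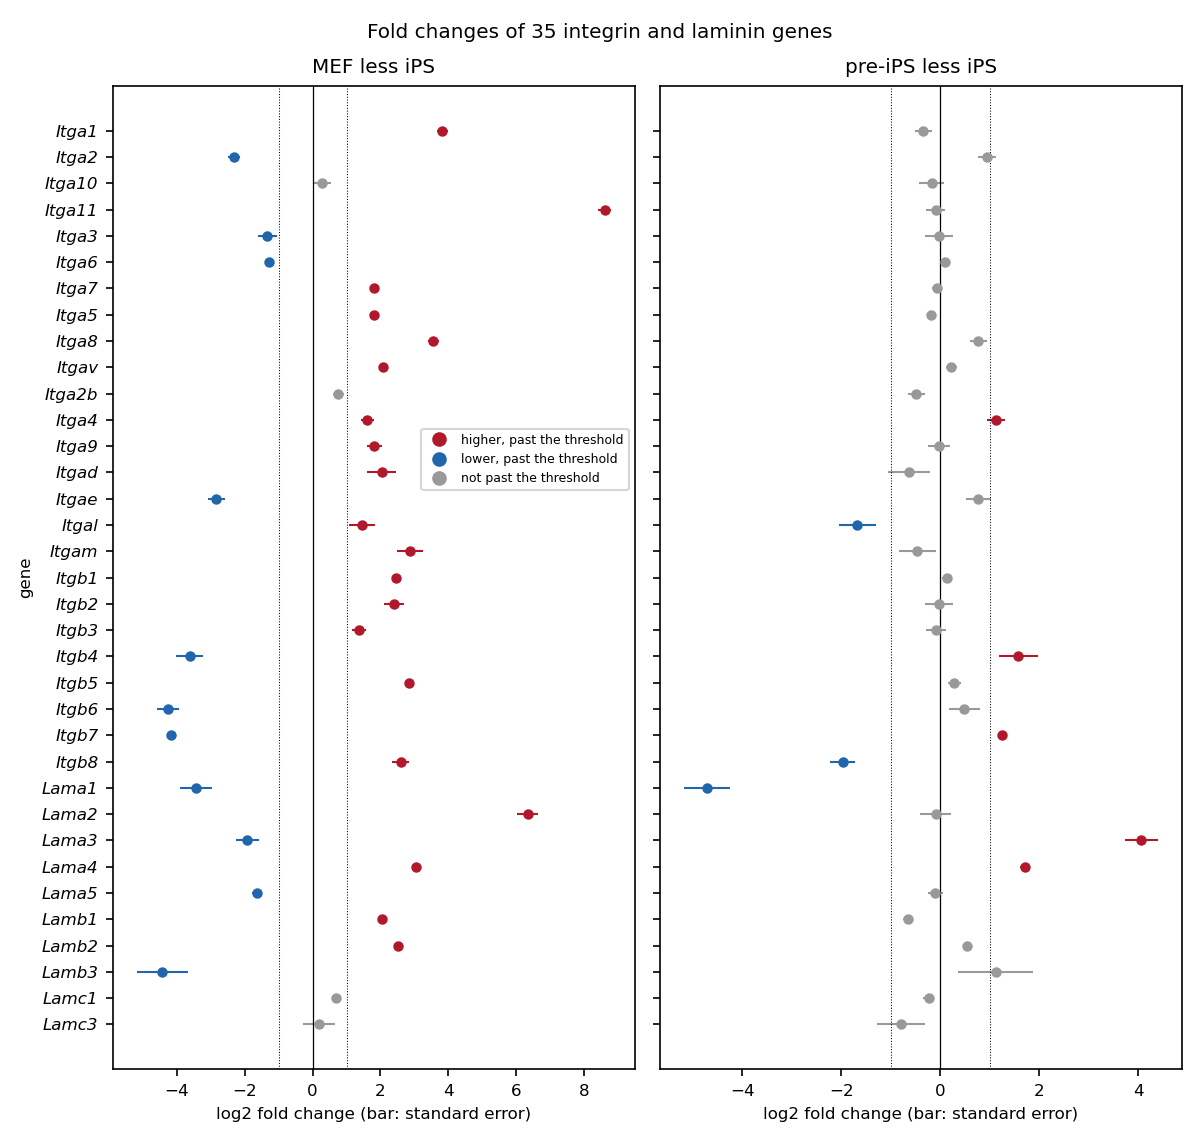
Log2 fold change with its standard error for 35 tested genes, MEF less iPS (left) and pre-iPS less iPS (right), with dotted lines at -1 and 1 and red and blue for genes past the threshold. On the left 20 genes are red and 11 blue; on the right 5 are red and 3 blue.

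**Figure D3:**
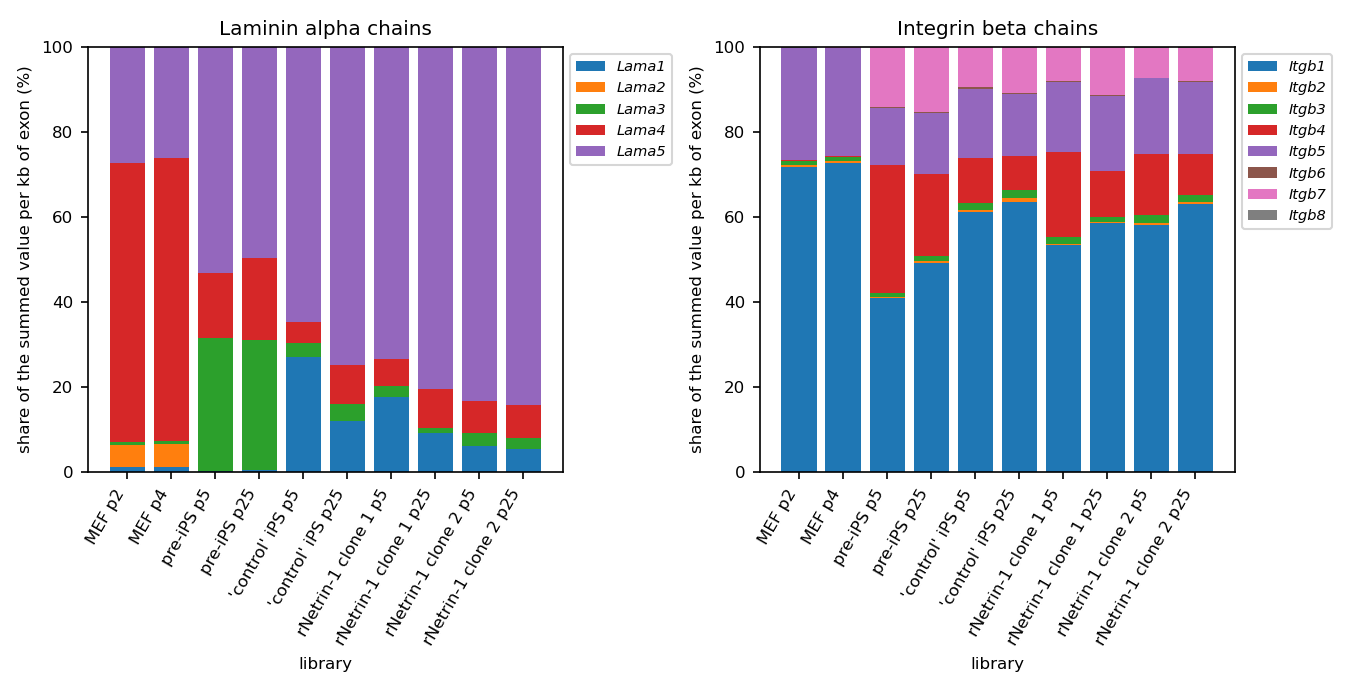
Share of each chain in the value per kb of exon summed over the laminin alpha chains (left) or the integrin beta chains (right), 1 stacked bar per library reaching 100%. Lama4 leads in the MEF bars (66.1%), Lama5 in the iPS bars (76.9%), and Lama3 takes 30.9% in pre-iPS.

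Genes that act with these chains gave the following counts for MEF against iPS. Of 20 basement membrane partners 14 were higher and 1 lower, with Smoc2 (log2 fold change 8.43) and Col15a1 (5.48) leading the former and Frem2 (-5.22) as the latter. Of 22 tested ligands other than laminins 19 were higher and 2 lower. Their leaders were periostin Postn (8.30) and thrombospondin Thbs1 (7.41), and the pair that was lower was Cdh1 (-7.72) and Madcam1. Of 16 other laminin receptors and integrin partners 8 were higher, led by Cav1 (3.53) and Sdc2 (2.78), and 1 lower, the Lutheran laminin receptor Bcam (-3.33). Of 32 adaptors and focal adhesion genes 17 were higher, led by Lims2 (4.24) and Tgfb1i1 (4.13), and 2 lower, Fermt1 (-4.24) and Parvb (-1.11).

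The pre-iPS line, partly reprogrammed, was next compared with the iPS lines. The differences with the largest folds were those of laminin alpha chains, with Lama3 higher and Lama1 lower in pre-iPS. Of the 36 genes 5 were higher (Lama3, Lama4, Itgb4, Itgb7 and Itga4) and 3 lower (Lama1, Itgb8 and Itgal). The shares over all genes were 4.71% higher and 11.6% lower. The median was -0.02 over the 36 genes and 0.00 over all genes. Under quantile normalization 804 higher and 1977 lower over all genes became 1366 and 1499, and Itgae joined the genes that were higher (log2 fold change 1.12).

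Lama1 had the largest difference of this comparison. Its values were 110 and 133 in pre-iPS, below both MEF values, and 9610, 2647, 6593, 2606, 1833 and 1298 in 'control' iPS, clone 1 and clone 2, each at passage 5 and then 25. The pre-iPS mean of 121 ± 15.8 (SD, n = 2) was 33.8 times below the iPS mean of 4098 ± 3284 (SD, n = 6), which gave -4.71 ± 0.47 (SE) as log2 fold change with an adjusted p of 0.000149 in limma. Of 9 markers of primitive endoderm, a cell type known for Lama1, 4 (Sox17, Sox7, Foxa2 and Cubn) were below every iPS value in both pre-iPS libraries, and the values of Gata4, Gata6, Dab2, Pdgfra and Amn overlapped. Sox17 was at 2.04 and 0 reads in pre-iPS and at 29.6 to 171 in iPS, Foxa2 at 2.04 and 2.88 against 17.9 to 71.6, and Cubn at 54.1 and 69.1 against 146 to 832. The all-gene share below every iPS value in pre-iPS is not given here, so no excess can be read from the 4. The 9 markers summed to 3557 and 4787 in pre-iPS and to 3457 to 7176 in iPS (23261 and 23584 in MEF), and their part in the Lama1 difference was not tested.

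Lama3 went the other way, at 14927 and 12933 in pre-iPS and 345 to 1291 in iPS. The ratio of the means was 15.6 and the log2 fold change 4.07 ± 0.34 (SE, limma adjusted p = 5.8e-05). It supplied 30.9 ± 0.42% of the laminin alpha RNA per kb in pre-iPS and 2.75 ± 0.996% in iPS. Lama4 was at 8238 and 9172 in pre-iPS, between the MEF and the iPS values, with a log2 fold change of 1.71 ± 0.10 over iPS (SE, with a limma adjusted p = 8.11e-06). Lama5 was at 27010 and 22304 in pre-iPS, within the iPS range, and remained the leading alpha chain with 51.5 ± 2.45%.

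Lamb3, a partner of Lama3, did not pass in the same fit. It was at 762 and 321 in pre-iPS and at 92.8 to 594 in iPS, so the groups overlapped, and the log2 fold change was 1.12 ± 0.76 (SE). With the passage as a replicate block, Lamb3 did pass at the same fold change (limma, adjusted p = 0.00443).

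Itgb4 stood at 21354 and 11074 in pre-iPS against 2834 to 11396 in iPS, or 1.58 ± 0.39 in log2 units (SE, limma adjusted p = 0.0122). The groups overlapped through clone 1 at passage 5, and the call was lost without the pre-iPS library of passage 5 (1.10, limma adjusted p = 0.137). Its partner Itga6 did not differ by the test (4140 and 5149 against 3931 to 4716). Itgb7 was at 3977 and 3462 in pre-iPS against 1259 to 1899 in iPS, so that the log2 difference was 1.26 ± 0.09 (SE, adjusted p = 2.33e-05 by limma) with groups that did not overlap.

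Itgb8, which pairs with Itgav to activate latent TGF-beta, was at 11.2 and 19.2 in pre-iPS and at 36.4 to 133 in iPS, which gave -1.97 ± 0.25 (SE) as log2 fold change with an adjusted p of 0.000454 in limma. Itga4 was at 335 and 522 against 146 to 289 and lost its fold without the pre-iPS library of passage 25 (0.81). Itgal was at 25.5 and 37.4 against 47 to 303 and lost its call without the pre-iPS library of passage 5 (limma, adjusted p = 0.09). The macrophage and leukocyte markers summed to 6024 and 6823 in pre-iPS, chiefly Laptm5 at 4719 and 4711, while Emr1 and Tyrobp had 0 reads and Lyz2 was at 5.10 and 2.88. Cd68 was at 1565 and 853 in pre-iPS, above the 767 and 715 of MEF. Cd14 was at 240 and 215 in pre-iPS, and Mrc1 at 197 in both libraries.

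Among genes that passed by adjusted p but not by fold were Lamb1 (6380 and 7225 in pre-iPS against 9058 to 13145), Lamb2 (5186 and 5305 against 2963 to 4156) and Itga8 (401 and 309 against 170 to 270). For none of them did the groups overlap. As a share of laminin beta RNA per kb, Lamb2 led in pre-iPS with 52.9% and Lamb1 in iPS with 62.9 ± 5.53%.

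The basement membrane partners held 4 higher and 5 lower of 20 in pre-iPS against iPS. Egfl6 (log2 fold change 1.79) and Col15a1 (1.73) led the higher ones, and Smoc1 (-3.22) and Smoc2 (-2.45) the lower ones. Of 22 ligands 0 were higher and 3 lower, among them Madcam1 (-3.13) and Ctgf (-1.63). Of 16 other receptors and partners Cd44 (1.12) was the one higher and Bcam (-1.86) the one lower, and of 32 adaptors Tns1 (1.12) and Actn1 (-1.30).

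Set against MEF, the pre-iPS line showed 11 of the 36 genes higher and 20 lower, where 22.4% of all genes were higher and 20.9% lower. The pre-iPS and MEF values also enter the comparisons above, so these counts are not a further independent test. Under the housekeeping scaling the median of all genes moved from 0.06 to -0.34, the counts became 9 higher and 22 lower, and over all genes 3820 higher and 3563 lower became 2874 and 5046. By that scaling Itga3 and Itga6 again lost their call and Lama1 (-1.70) and Lamc1 (-1.35) gained one, and under quantile normalization Lama4 lost its call (-0.88).

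By size the 8 leading differences were those of Itga11 (31.6 and 23.0 in pre-iPS, log2 fold change -8.69), Lama2 (39.8 and 18.2, -6.42), Lama3 (5.99), Lamb3 (5.54), Itgb7 (5.44), Itgb4 (5.19), Itgb6 (127 and 101, 4.75) and Itgb8 (-4.56). Itga11 is a fibroblast chain, Lama2 the muscle and nerve chain, and Lama3, Lamb3, Itgb4 and Itgb6 are chains of epithelia. Itgb7, known from lymphocytes, and Itgb8, a partner of Itgav, belong to neither kind. Itga11, Lama2 and Itga1 (82.6 and 116) had pre-iPS values that overlapped those of iPS, with differences from iPS of -0.09 ± 0.19, -0.09 ± 0.32 and -0.34 ± 0.17 (SE) that did not pass. Lama1 and Lamc3 did not pass, nor did Itga4, Itga10 and Lamc1. Without either 'control' library Lama1 passed (-1.28, limma adjusted p = 0.0196 or 0.0197), and without the pre-iPS library of passage 5 Itga3 did not (limma, adjusted p = 0.0592).

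In the same comparison 1 of 20 basement membrane partners was higher (Frem2, 5.14) and 16 lower, led by Smoc2 (a mean of 3.39 against 6976) and Sparc (-5.53). Of 22 ligands 2 were higher (Cdh1, 7.46, and Madcam1, at 6.12 and 3.84 in pre-iPS) and 18 lower, led by Postn (-8.65) and Thbs1 (-8.54). The other receptors gave 2 higher (Bcam, 1.47, and Cd44, 1.02) and 7 lower, led by Cav1 (-3.95) and Sdc4 (-2.15). The adaptors gave 2 higher (Fermt1, 3.49, and Parvb, 1.53) and 17 lower, led by Tgfb1i1 (-4.67) and Lims2 (-4.29).

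Whether iPS cells made with rNetrin-1 differ in these genes was asked by setting the mean of clones 1 and 2 against the 'control' line. None of the 36 genes passed the threshold in limma, and none in edgeR or DESeq2 on the recovered reads. At the threshold, 0.99% of all genes were higher and 1.12% lower. At an unadjusted p under 0.05 limma gave 12 and edgeR 13 of the 36. The share of all genes at that level is not given here, so no excess can be read from these counts. The median was 0.22 over the 36 genes and -0.01 over all genes. With 1 'control' line, a difference between the treatments and one between clones cannot be told apart.

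The largest log2 fold changes of this comparison were those of Lama1 (-1.0 ± 0.50, SE), Itgad (0.94), Lamc3 (0.89), Itgb4 (0.86) and Itgb6 (-0.84), none of them past the threshold. Lamb2 had the smallest adjusted p of the 36 genes. It was at 2963 and 3284 in 'control', below the 3859, 4156, 3969 and 3360 of the clones, or 0.29 ± 0.08 in log2 units (SE, limma adjusted p = 0.0999). Lama3 passed without the clone 1 library of passage 5 (-1.08, limma adjusted p = 0.031). Itga6, Itga3 and Itgb1, the chains described for Netrin-1 binding beside Itgb4, did not pass.

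Clone 1 against 'control' gave 0 genes past the threshold in limma and in edgeR, with 9 and 11 at an unadjusted p under 0.05. The share of all genes at that unadjusted level is not given here, so no excess can be read from these counts. At the threshold, 0.767% of all genes were higher and 0.638% lower. Its largest differences were those of Itgal (47 and 51.3 against 107 and 133, -1.27), Itgb4 (11396 and 4607 against 4210 and 2834, 1.07 ± 0.47, SE), Lamc3 (1.00), Itga2 (532 and 439 against 236 and 249, 0.99) and Lama3 (-0.94). With the passage as a replicate block Itgb4 passed (limma, adjusted p = 0.0114), and under quantile normalization Itga2 did (1.07, limma adjusted p = 0.0497).

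In clone 2 a single gene passed against 'control', Itgb8 (chr12:119158022-119238802). It stood at 128 and 133 in clone 2, at 36.7 and 51.1 in 'control' and at 36.4 and 42.1 in clone 1, so clone 2 lay apart from both other lines at either passage. The log2 fold change was 1.57 ± 0.30 over 'control' (SE, limma adjusted p = 0.0284) and 1.71 ± 0.30 over clone 1 (SE, limma adjusted p = 0.0375). Its level in clone 2 was 35.2% of the MEF mean. The adjusted p rose above 0.05 without either MEF library, without either 'control' library and without either clone 2 library, in the range 0.0693 to 0.111 for the comparison with 'control'. For the comparison with clone 1 it was 0.0599 to 0.2 without either library of MEF, clone 1 or clone 2. In the fits over the 2 lines alone it was 0.14 and 0.206. The direction could not turn in any of these, since both clone 2 values lay above every value of 'control' and clone 1.

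Over all genes 1.11% were higher and 1.31% lower in clone 2 against 'control', and 0.714% higher and 0.252% lower in clone 2 against clone 1. Itgb8 was the 1 gene of 36 past the threshold in each of these comparisons. At an unadjusted p under 0.05 limma gave 9 and 8 of the 36, also without an all-gene share at that level. A replicate block for the passage raised the calls over all genes from 360 to 564 for both clones, from 240 to 490 for clone 1, from 413 to 711 for clone 2 and from 165 to 327 between the clones.

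Other genes of clone 2 had large fold changes without passing. Lama1 was at 1833 and 1298 in clone 2 against 9610 and 2647 in 'control', so that the log2 difference was -1.71 ± 0.58 (SE, adjusted p = 0.156 by limma), and DESeq2 called it. Of the 9 primitive endoderm markers 7 were lower in both clone 2 libraries than in either 'control' library, as for Sox17 at 35.7 and 29.6 against 171 and 87.6 and for Cubn at 235 and 146 against 832 and 344, while Sox7 and Pdgfra overlapped. The share of all genes that separate in this way is not given here, so no excess can be read from the 7. The part of these markers was not tested. Itgad (1.13), Itgb6 (-0.94) and Lamc3 (0.77) followed by size and did not pass.

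Between the clones Itgal had the largest fold change (96.2 and 303 in clone 2 against 47 and 51.3 in clone 1, 1.78 ± 0.47, SE, limma adjusted p = 0.118), which came mainly from the passage 25 library. Lama1 (-1.43), Itga2 (-0.85) and Itgae (0.74) were the next and did not pass. Itgb1 was at 17332 and 15021 in clone 2, 17511 and 14429 in clone 1 and 14272 and 13102 in 'control', and it did not pass in any comparison of these lines.

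**Figure D4:**
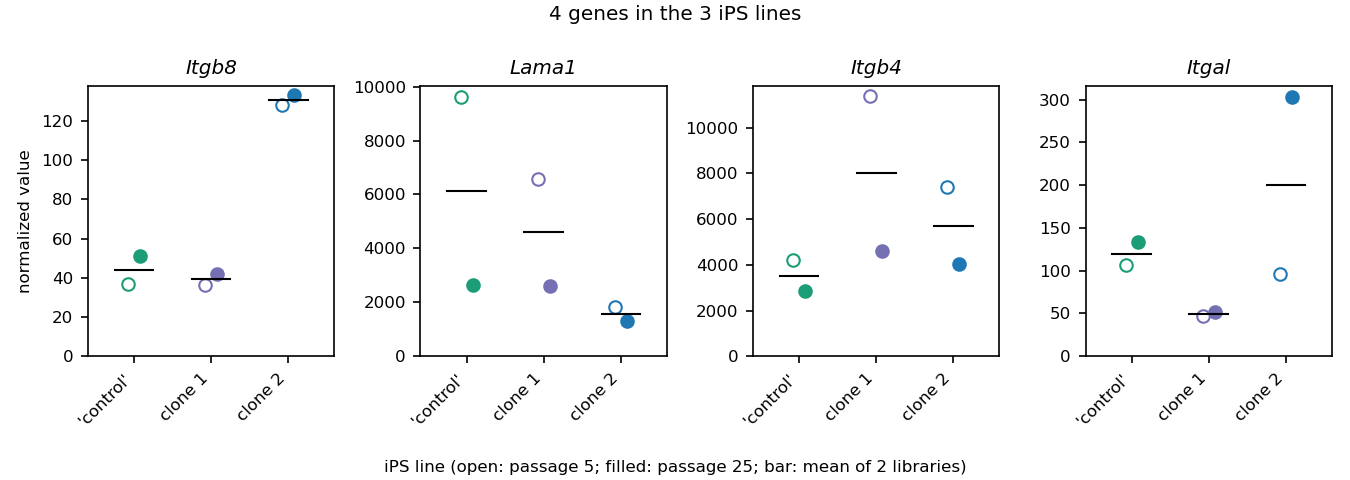
Normalized values of Itgb8, Lama1, Itgb4 and Itgal in the 3 iPS lines, with open points for passage 5, filled points for passage 25 and a bar at the mean of the 2 libraries. Both Itgb8 points of clone 2 (128 and 133) lie above the 4 others (36.4 to 51.1), while the Lama1 and Itgb4 points of a line are far apart.

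Of the partner genes, Egfl6 was lower in the clones than in 'control' (355 and 309 in clone 1 and 336 and 278 in clone 2 against 901 and 708, -1.33 ± 0.15, SE, limma adjusted p = 0.00334). It was the 1 of 20 basement membrane partners that passed for both clones and for clone 2, and Smoc1 passed with it in clone 1 (-1.15). No ligand, other receptor or adaptor of the lists passed in these comparisons.

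Passage 25 was compared with passage 5 within the pre-iPS line and the 3 iPS lines. Lamb3, an epithelial laminin chain, fell in all 4 lines. None of the 36 genes was higher at passage 25 and 2 were lower, Lamb3 among them, where 0.398% of all genes were higher and 1.29% lower. The median was -0.18 over the 36 genes and -0.01 over all genes.

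Lamb3 (chr1:193207699-193343878) went from 762 to 321 in pre-iPS, from 306 to 92.8 in 'control' iPS, from 594 to 112 in clone 1 and from 478 to 153 in clone 2. Its mean log2 fold change was -1.75 ± 0.18 (SE, limma adjusted p = 0.00356). In every line the later passage was the lower one.

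Another 4 genes fell by adjusted p without reaching the fold. Itgb4 fell in each line, to 11074 in pre-iPS and to between 2834 and 4607 in iPS (-0.93 ± 0.11, SE, limma adjusted p = 0.00455), and it passed the fold without either 'control' library (-1.05). Itga3 (-0.65), Lama5 (-0.33) and Itgb5 (-0.31) were the others. Lama3, the partner of Lamb3, was lower at passage 25 in all 4 lines (log2 changes of -0.21, -0.36, -1.55 and -0.54 in pre-iPS, 'control', clone 1 and clone 2) without passing. Itga3, Lama5 and Itgb5 were lower in all 4 lines too, as were Itga10, Itgav, Itgb1, Itgb6 and Lama2, which did not pass. A fall in all 4 lines was thus not particular to Lamb3, Lama3 and Itgb4.

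Lama1 did not change in 1 direction: its difference between passages was 0.26 in pre-iPS and -1.86, -1.34 and -0.50 in 'control', clone 1 and clone 2. It did not pass over the 4 lines (-0.86 ± 0.30, SE, limma adjusted p = 0.116), though edgeR called it. The test of pre-iPS against the iPS lines for the passage change, added after the values were seen, gave a difference of 1.5 ± 0.48 with an unadjusted p of 0.0204 in limma and an adjusted p of 1, and 0 of 17075 genes passed in it.

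**Figure D5:**
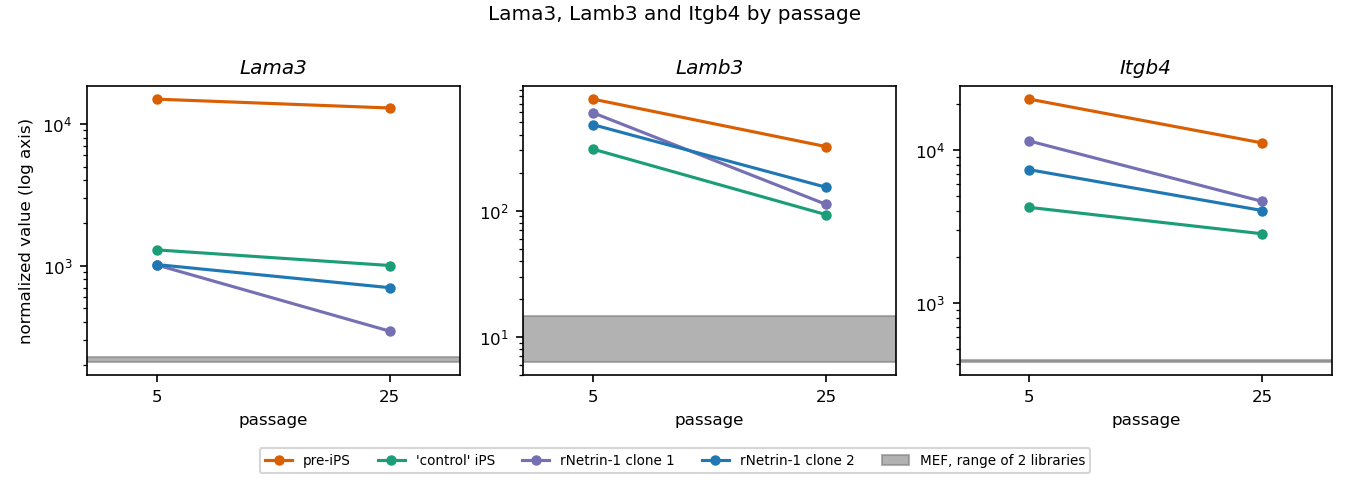
Normalized values (log axis) of Lama3, Lamb3 and Itgb4 at passages 5 and 25, 1 line per cell line, with the range of the 2 MEF libraries in grey. All 12 lines slope downwards, and all points lie above MEF, as for Lamb3 (92.8 to 762 against 6.28 and 14.7).

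Of the partner genes, Sparc fell between the passages (mean 19529 to 9587, -1.01) and Fras1 rose (1.2), the 2 of 20 basement membrane partners that passed. Of 22 ligands 2 rose, Nov (1.06) and osteopontin Spp1 (mean 14016 to 28840, 1.04), and 0 fell. Of 16 other receptors Lgals3, a laminin-binding galectin, fell (-1.30), and no adaptor passed.

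Exons shared with other genes limit some of these values. In the GENCODE M21 annotation Itgam shares 68.7% of its exon bases with another gene, Itga10 33.5% and Itgad 19.7%. For Itgam and Itga10 the other gene is on the same strand, and for Itgad 12.4% of its exon bases are shared with a gene on the opposite strand, which the kit does not tell apart. Of the other genes 9 share between 0.111 and 8.04%, and 25 share none.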

How the data were processed

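RNA of 10 libraries (5 lines, 2 each) was sequenced as unstranded, single 50-nt reads on 1 lane. The deposited values are a signal table: per the labels and the study's methods the authors aligned reads with TopHat2 to mm10, counted them per gene with HTSeq and normalized the counts as edgeR pseudo-counts. The totals of these values are not equal between the libraries, as given above. The annotation they used is not given in the sources used here. Whole reads were recovered for 100% of the values in each library (tolerance 0.05 reads).

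Lines were compared with limma 3.58.1 (R 4.3.3) on log2(value + 1), with 1 mean per line over all 10 libraries, on 17075 genes with values of 10 or more in 2 or more libraries, and Benjamini-Hochberg adjustment over all of them. A gene was called when its adjusted p was below 0.05 and its log2 fold change 1 or more in either direction. The passage comparison used the line as a block over 8 libraries. Since fold changes are on the log2(value + 1) scale, those of low genes are understated. edgeR 4.0.16 and DESeq2 1.42.0 on the recovered reads were alternatives added after the data were seen. The other alternatives were the pseudocount, the filter, quantile normalization, scaling to housekeeping genes, the threshold, the lines fitted, the passage block and leaving out each library. The scripts were tested on simulated data.

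Exon lengths, coordinates and overlaps are from GENCODE M21 (GRCm38), in which all 37 genes were found, and promoters from RefSeq (GRCm38.p6). Passages 5 and 25 pair the lines: the differences between passages correlated between every pair of lines (0.235 to 0.504 over 6 pairs). 1 of the 37 genes is counted but not reported here. The others were described, those with the 8 largest called differences per MEF comparison and the 5 largest per clone comparison in more detail, and of each list those that moved most. The genes and the lists of partners and markers were chosen with earlier results of these data known.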

Additional observations from a re-analysis of the deposited data

Results flagged for a closer look

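The change of Itgb8 from 'control' iPS differed between the rNetrin-1-derived clones: clone 2 less clone 1 was 1.71 ± 0.30 on the log2 scale (SE, limma adjusted p = 0.0375), with 128 and 133 in clone 2 against 36.4 and 42.1 in clone 1. It is the same comparison of the clones as given above, and was singled out because the difference itself passed its test. That call was lost without any 1 library of MEF, clone 1 or clone 2. It was also lost in the fit over the 2 clones alone (limma adjusted p = 0.206). Lines of 2 libraries are too small for a test of single samples that lie far from their group.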

How the results depend on the processing

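Alternatives were run for the integrin and laminin genes past the threshold in the comparisons of MEF and pre-iPS and for the 5 largest differences in each of the others, and none of these changed direction. They were not run for the other genes named, partner genes included. By adjusted p alone the calls over all genes were 13546 for MEF against iPS (8237 with the fold threshold), 6758 for pre-iPS against iPS (2781), 12062 for pre-iPS against MEF (7383), 697 for the clones (360), 424 and 709 for clones 1 and 2 (240 and 413), 271 between the clones (165) and 1869 for passage (289). Integrin and laminin calls became 14 for pre-iPS against iPS (8) and 6 for passage (2). With a mean of at least 50 the calls over all genes were 1758 for pre-iPS against iPS and 106 between the clones, where fewer genes were tested. Over only the lines compared, with fewer libraries to set the spread, they were 134 (clones), 0 (clone 1), 17 (clone 2) and 6 (clone 2 against clone 1), and the Itgb8 calls of clone 2 and between the clones fell to 0. With the passage as a replicate block they were 564, 490, 711 and 327 in the same order. Clone 1 then had 1 of the 36 genes (Itgb4), pre-iPS against iPS gained Lamb3, and no other call of these genes changed. MEF had other passages and no block. DESeq2 called 515 and 670 genes for clones 1 and 2 and 435 between the clones, with 2 of the 36 genes for clone 2 (adding Lama1) and 2 between the clones (adding Itgal), and the cause was not tested. Quantile normalization called 1 of the 36 for clone 1 (Itga2).

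Leaving out 1 library at a time, calls over all genes and of the 36 genes were 7923 to 8295 and 31 to 32 for MEF against iPS, 2324 to 2872 and 7 to 9 for pre-iPS against iPS, 6969 to 7406 and 30 to 32 for pre-iPS against MEF, 120 to 419 and 0 to 1 for the clones, 63 to 264 and 0 to 1 for clone 1, 126 to 377 and 0 to 1 for clone 2, 14 to 260 and 0 to 2 for clone 2 against clone 1, and 94 to 288 and 2 to 3 for passage. A line left with 1 library was assumed to vary like the others. Beside those given in the report, genes gained were Itga2 for pre-iPS against iPS (without pre-iPS passage 5 or clone 2 passage 5), Lamc1 for pre-iPS against MEF (without pre-iPS passage 25), Lama3 for clone 1 (without its passage 5), Itgal for clone 1 (without either clone 2 library), Itga9 for clone 2 (without its passage 25), and Itga2 and Itgal between the clones (without clone 2 passage 5).

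Genes at a few reads per library, such as Itgad, Itgax and Itgb6 in MEF, have fold changes that depend on the pseudocount. With 2 libraries per line, exact permutation tests cannot go below 0.0357 for 2 against 6 libraries and 0.0667 for 2 against 4.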
